A study of Mus musculus with 11 samples.

Results

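Expression of 10 Sox genes was read from RNA-Seq of Chd7 conditional knockout (cko) and control granule cell precursors (GCps), the dividing progenitors of cerebellar granule neurons. The genes were taken as a fixed list of Sox transcription factors that have been tied to the chromatin remodeler CHD7, without use of their measured values: Sox2, Sox3 and Sox21 of the SoxB group, Sox4 and Sox11 of SoxC, Sox5 and Sox6 of SoxD, and Sox8, Sox9 and Sox10 of SoxE. All 10 were among the 38924 genes counted, and all 10 were among the 16436 genes that passed the expression filter and were tested. The family holds 20 listed genes in all, and the other 10 are given for comparison.

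GCps were purified at postnatal day 7 for 2 cko libraries (Math1-Cre Chd7fl/fl) and 2 control libraries, from mice on a C57Bl/6J background. The control genotype is Chd7fl/+ in the sample labels, which also call it wild type, whereas the extraction notes give Chd7f/f without Cre. Both genotypes thus carried floxed Chd7, and the Cre transgene was in the cko mice. Math1-Cre recombines the floxed allele in the granule cell lineage, not in glia or endothelium, and lobules IX and X, where recombination is incomplete, were removed before cerebella of a genotype were pooled and cells separated on a Percoll gradient. The chromatin assays of the series (ATAC-Seq and ChIP-Seq) were not analysed here.

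Sox proteins bind DNA through a high mobility group (HMG) box and act largely with partner factors, among them POU proteins. SoxB1 factors such as SOX2 maintain neural progenitors, SoxC factors promote neuronal differentiation, SoxD factors lack an activation domain of their own and modulate other Sox proteins, and SoxE factors drive glial fates. CHD7 is known to bind SOX2 in neural stem cells and to share target genes with it, to open chromatin at the Sox4 and Sox11 promoters in adult neural stem cells, and to work with SOX10 in oligodendrocytes. In the cerebellum Sox2 and Sox9 are best known from Bergmann glia and astrocytes, and Sox10 from the oligodendrocyte lineage.

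Genes of a Sox group share stretches of coding sequence, and a read lying wholly inside such a stretch cannot be assigned to one gene. With 1 transcript per gene, the one with the longest coding sequence, the longest identical stretch between 2 members of the same group ran from 17 to 48 bases (median 30 over 8 pairs, all in coding sequence). Between members of different groups it ran from 10 to 30 bases (median 17 over 37 pairs), in coding or untranslated sequence. The longest ones are shown because they mark where counts of paired genes could mix. Capitals mark the identical stretch and lower case the 15 bases on each side, read on the coding strand, with coordinates of the stretch on GRCm38 (mm10). All lie in coding exons. The 48 bases of Sox4 and Sox11 belong to the HMG box, as do the 38 bases of Sox2 and Sox21, while the 44 bases of Sox9 and Sox10 lie just before the HMG box.
Sox4 (chr13:28952749-28952796, minus strand): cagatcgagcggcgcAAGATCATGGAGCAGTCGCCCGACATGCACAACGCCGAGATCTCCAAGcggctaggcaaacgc
Sox11 (chr12:27342166-27342213, minus strand): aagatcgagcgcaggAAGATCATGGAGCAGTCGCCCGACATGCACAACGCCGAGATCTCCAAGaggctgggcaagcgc
Sox9 (chr11:112782831-112782874, plus strand): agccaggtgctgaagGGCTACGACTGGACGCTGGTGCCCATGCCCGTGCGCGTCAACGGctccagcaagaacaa
Sox10 (chr15:79163430-79163473, minus strand): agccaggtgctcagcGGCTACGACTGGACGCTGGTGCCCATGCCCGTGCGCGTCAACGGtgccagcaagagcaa
Sox2 (chr3:34650614-34650651, plus strand): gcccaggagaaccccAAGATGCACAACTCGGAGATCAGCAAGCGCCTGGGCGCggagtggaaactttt
Sox21 (chr14:118235505-118235542, minus strand): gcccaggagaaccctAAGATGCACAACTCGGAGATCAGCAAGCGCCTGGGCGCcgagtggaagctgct

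The bases next to the stretch differed within each pair on both sides, so a read of these transcripts longer than 48 bases holds at least 1 base that tells such genes apart. The sources used here do not give the read length. Against exonic lengths of 2057 to 14832 bases per member, the shared stretches are short.

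The counts assigned to genes totalled 73480074 and 62437759 in cko replicates 1 and 2 and 77346481 and 61836588 in control replicates 1 and 2. Values in CPM, the usual depth-scaled unit of counts, use TMM-adjusted library sizes. The Chd7 count, summed over the whole gene, was 392.5 and 354.8 CPM in cko libraries against 322 and 319 CPM in control libraries (adjusted p = 0.418) and does not check the deletion, so directions rest on the labels. One library stood apart: cko replicate 1 had 793 CPM of Xist, where the remaining libraries had 0.548 CPM or less, and it had 0 CPM of the Y-linked gene Ddx3y, against 63.7 to 69.1 CPM elsewhere. By these values the cko libraries hold RNA of different animals, whereas nothing shows this for the control libraries, whose spread may be technical. P-values cover no more than the spread of these 4 libraries, and an exact permutation test of 2 against 2 cannot go below p = 0.333. Skeletal muscle transcripts were higher in cko libraries, with the 4 listed genes summing to 23.2 and 48.3 CPM against 5.73 and 4.47 CPM in control libraries and 2 of them (Myh3 and Myog) passing the test described next.

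None of the 10 Sox members passed edgeR's quasi-likelihood test between cko and control GCps at an adjusted p under 0.05, and 0 had an unadjusted p under 0.05, against 13.6% of all tested genes. DESeq2 also called 0, with 0 at an unadjusted p under 0.05. Over all tested genes 260 were called, or 1.58%, of which 133 were higher and 127 lower in cko. Log2 fold changes (cko over control throughout) of the members ran from -0.34 for Sox21 to 0.35 for Sox8, with 5 above and 5 below 0 and a median of 0.060, against a median of -0.00056 over all genes. Both cko libraries lay above both control libraries for Sox2 and Sox8, a pattern that 22.7% of all tested genes showed, and below both for Sox3 and Sox21, as in 21.2% of all genes. The libraries of the genotypes overlapped for the other 6 members. In bulk samples such as these, fewer cells of a type and less RNA per cell cannot be told apart.

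**Figure D1:**
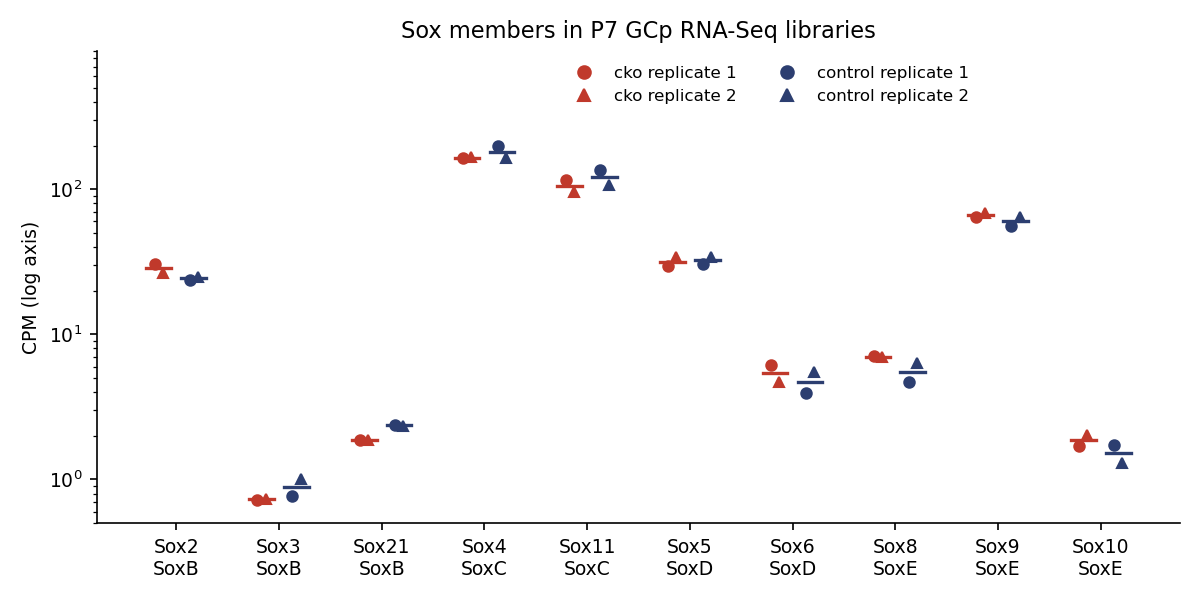
CPM (log axis) of the 10 Sox members in each RNA-Seq library, with circles for replicate 1, triangles for replicate 2, cko left of control, and a bar at the mean of the 2 libraries of a genotype. Levels run from 0.726 CPM for Sox3 to 200 CPM for Sox4, and the genotypes lie close together at every member.

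The interval of each difference bounds what these libraries allow. All 10 members had 95% intervals within a 2-fold change either way, as did 12219 of all tested genes (74.3%). Intervals within a 1.5-fold change were found for 5 of the 10 and for 8495 of all tested genes. In DESeq2, also on all 4 libraries, 8 of the 10 lay within 2-fold. Sox3 reached -1.30 and Sox10 1.05 there, so the bound depends on the test. In the edgeR fit the widest interval was that of Sox3, from -0.99 to 0.42 on the log2 scale. Sox3 was the member with the fewest counts (45 to 61 reads per library). Sox10, with 78 to 133 reads, had the next widest, from -0.32 to 0.93. Without control replicate 2 only 6 intervals stayed within 2-fold, and without control replicate 1 only 7 did. With 1 cko library left out, whichever it was, 8 did, so the bound rests on all 4 libraries.

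**Figure D2:**
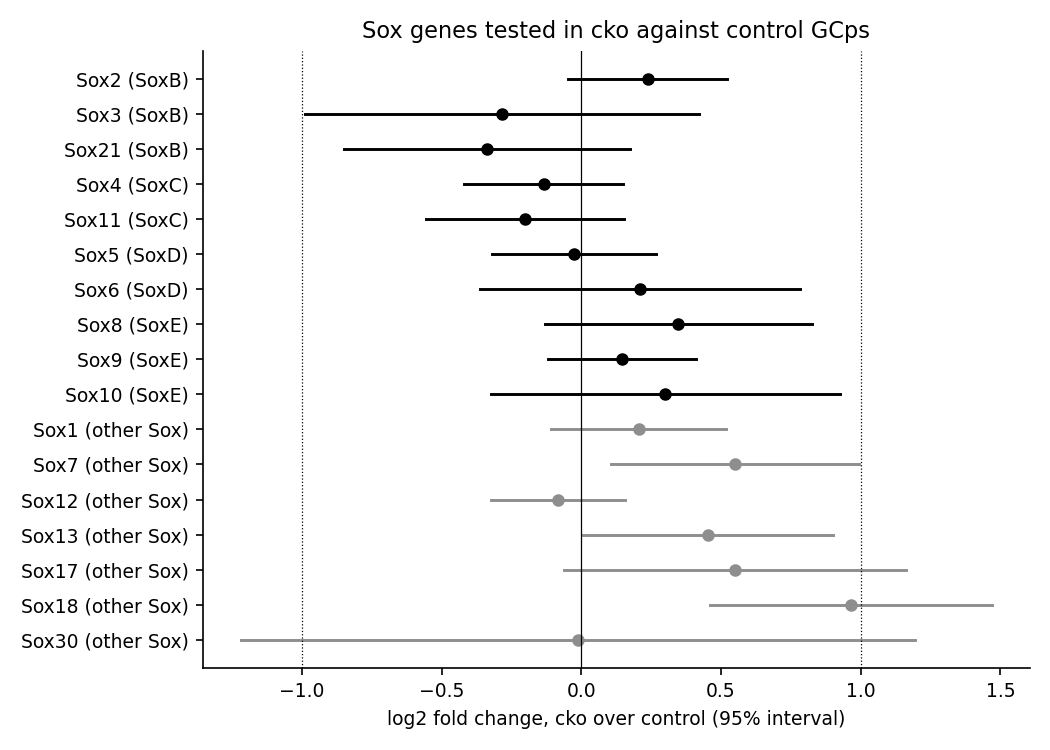
Log2 fold change of cko over control (points) with 95% intervals (bars) for the 10 Sox members (black) and the 7 other Sox genes tested (grey). The solid line is no change and the dotted lines are 2-fold. All 10 member intervals include 0 and lie within 2-fold, whereas those of Sox7, Sox13 and Sox18 lie above 0 before adjustment over all genes.

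In the SoxB group, Sox2 (ENSMUSG00000074637), the SoxB1 factor of neural stem cells and glia, was at 30.7 and 26.5 CPM in cko libraries against 23.8 and 24.7 CPM in control libraries. Its single exon lies at chr3:34650405-34652461. Both cko values were above both control values, with a log2 fold change of 0.24 (standard error, SE, 0.12, 95% interval -0.048 to 0.52, adjusted p = 0.483). In fold terms the interval ran from 0.967 to 1.44. Without cko replicate 1, the library with high Xist, the log2 fold change was 0.14.

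Sox3 (ENSMUSG00000045179, chrX:60891366-60893430), the X-linked SoxB1 gene of progenitors, was at 0.726 and 0.732 CPM in cko libraries against 0.770 and 1.01 CPM in control libraries. Both cko values were lower than both control values, although the log2 fold change of -0.28 had an SE of 0.30 (adjusted p = 0.779). The cko replicate with high Xist and the one without it gave nearly the same level of this X-linked gene. Sox21 (ENSMUSG00000061517, chr14:118233232-118237030), a SoxB2 repressor that counters SoxB1 activity and favours neuronal differentiation, was at 1.87 and 1.87 CPM in cko libraries against 2.39 and 2.34 CPM in control libraries. The genotypes did not overlap and the replicates of each lay close together, yet the log2 fold change of -0.34 (SE 0.22, interval -0.85 to 0.17) did not pass (adjusted p = 0.6002). Of its exonic length 18.8% overlaps another gene, Gm4675, which had 4 to 8 reads per library.

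Within SoxB, Sox2 thus lay slightly above and both of its low relatives slightly below their control levels, none past the test. Per kilobase of exon, Sox2 made up 94.7% and 93.8% of the summed SoxB level in cko libraries and 92.0% and 91.6% in control libraries.

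The SoxC genes promote differentiation of neuronal precursors. Sox4 (ENSMUSG00000076431, chr13:28948919-28953713, 1 exon) was at 163 and 168 CPM in cko libraries against 200 and 163 CPM in control libraries. Only control replicate 1 stood above the rest, and the log2 fold change of -0.13 (SE 0.12, interval -0.42 to 0.15, adjusted p = 0.727) became 0.017 without that library. Sox11 (ENSMUSG00000063632, chr12:27334264-27342574, 1 exon) was at 115 and 94.97 CPM in cko libraries against 135 and 107 CPM in control libraries. Replicate 1 was the higher one in both genotypes, and the groups overlapped (log2 fold change -0.20 ± 0.15 SE, interval -0.56 to 0.15, adjusted p = 0.659).

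The Sox4 count carries the largest overlap of the 10: 54.6% of its exonic length lies under an exon of Gm26735 on the opposite strand, and Gm26735 had 0 counts in all 4 libraries. Whether reads were counted by strand is not given. As a measurement on the counts, 21.2% of the 33 protein-coding genes overlapped over at least 99% of their exonic length by opposite-strand exons had 10 or more counts, against 69.4% of the 16935 with no such overlap. Reads in the shared part of Sox4 may therefore be missing from its count, which was not tested.

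The SoxD genes encode partners that bind beside other Sox proteins without activating by themselves. Sox5 (ENSMUSG00000041540, chr6:143828425-144781977) was at 29.5 and 33.9 CPM in cko libraries against 30.5 and 34.2 CPM in control libraries. These values were the closest between genotypes of the 10, with a log2 fold change of -0.027 (SE 0.12, interval -0.32 to 0.27, adjusted p = 0.964), and its sign changed when single libraries were left out. Exons of other genes cover 9.3% of its exonic length. Sox6 (ENSMUSG00000051910, chr7:115470872-116038796) was at 6.19 and 4.72 CPM in cko libraries against 3.93 and 5.52 CPM in control libraries. The replicates of each genotype were further apart than the genotypes, and the log2 fold change of 0.21 (SE 0.24, interval -0.36 to 0.78, adjusted p = 0.804) came to 0.0096 without cko replicate 1 and to -0.020 without control replicate 1.

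All 3 SoxE genes, the glial members of the family, had log2 fold changes above 0, and none passed. Sox8 (ENSMUSG00000024176, chr17:25565892-25570686), expressed in astrocytes and oligodendrocytes, was at 7.04 and 7.01 CPM in cko libraries against 4.69 and 6.36 CPM in control libraries. Its genotypes did not overlap (log2 fold change 0.35 ± 0.20 SE, interval -0.13 to 0.82, adjusted p = 0.553), but the difference was 0.14 without control replicate 1, the lowest library. Exons of the neighbouring gene 2810468N07Rik cover 10.6% of its exonic length.

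Sox9 (ENSMUSG00000000567, chr11:112782224-112787760), which specifies glial fate and marks astrocytes and Bergmann glia, was at 64.4 and 68.3 CPM in cko libraries against 55.4 and 64.5 CPM in control libraries. Cko replicate 1 and control replicate 2 were nearly equal, so the genotypes overlapped (log2 fold change 0.15 ± 0.11 SE, interval -0.12 to 0.41, adjusted p = 0.674). Its interval was the narrowest of the 10. Sox10 (ENSMUSG00000033006, chr15:79154908-79165240), the oligodendrocyte and neural crest member, was at 1.71 and 2.03 CPM in cko libraries against 1.74 and 1.29 CPM in control libraries. Control replicate 2 alone was low, and the log2 fold change of 0.30 (SE 0.26, adjusted p = 0.723) was 0.11 without it.

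Compared per kilobase of exon, so that genes of different length can be set side by side, the members formed an order of levels led by Sox4, at 34.5 ± 0.68 CPM per kilobase in cko and 37.9 ± 5.39 in control libraries (SD, n = 2 per genotype, as in what follows). Sox9 (16.0 ± 0.67 in cko and 14.5 ± 1.54 in control), Sox11 (12.6 ± 1.73 in cko and 14.6 ± 2.35 in control) and Sox2 (13.9 ± 1.46 in cko and 11.8 ± 0.32 in control) came next. Neighbours among these did not differ beyond their spread in at least 1 genotype: Sox9 and Sox11 overlapped in control libraries, and Sox11 and Sox2 in cko libraries.

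Sox5 and Sox8 followed well below them, Sox5 (2.21 ± 0.22 CPM per kilobase in cko and 2.25 ± 0.18 in control) and Sox8 (2.25 ± 0.0076 in cko and 1.77 ± 0.38 in control) overlapping in cko libraries. Sox21, Sox10, Sox3 and Sox6 were lowest, all between 0.265 and 0.666 CPM per kilobase in every library. On the full exonic length Sox21 and Sox10 did not overlap in either genotype, and their order turned. Both Sox10 values were above both Sox21 values in cko libraries and below them in control libraries. This separation depends on the length used. On the exonic length outside other genes the Sox21 mean in cko libraries was 0.606, between the Sox10 values of 0.561 and 0.666. Sox10 and Sox3 overlapped in control libraries, and Sox3 and Sox6 in cko libraries. On the exonic length outside other genes alone Sox4 came to 76.0 CPM per kilobase in cko and 83.4 in control libraries. These levels divide the whole count by that length. They hold only if reads in the overlapped part were not counted, which is not known. The order of the 10 did not change on that length. With the length of the longest transcript instead, 6 of the 10 kept their place. The lowest then ran Sox10, Sox6, Sox21 and Sox3, from higher to lower.

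**Figure D3:**
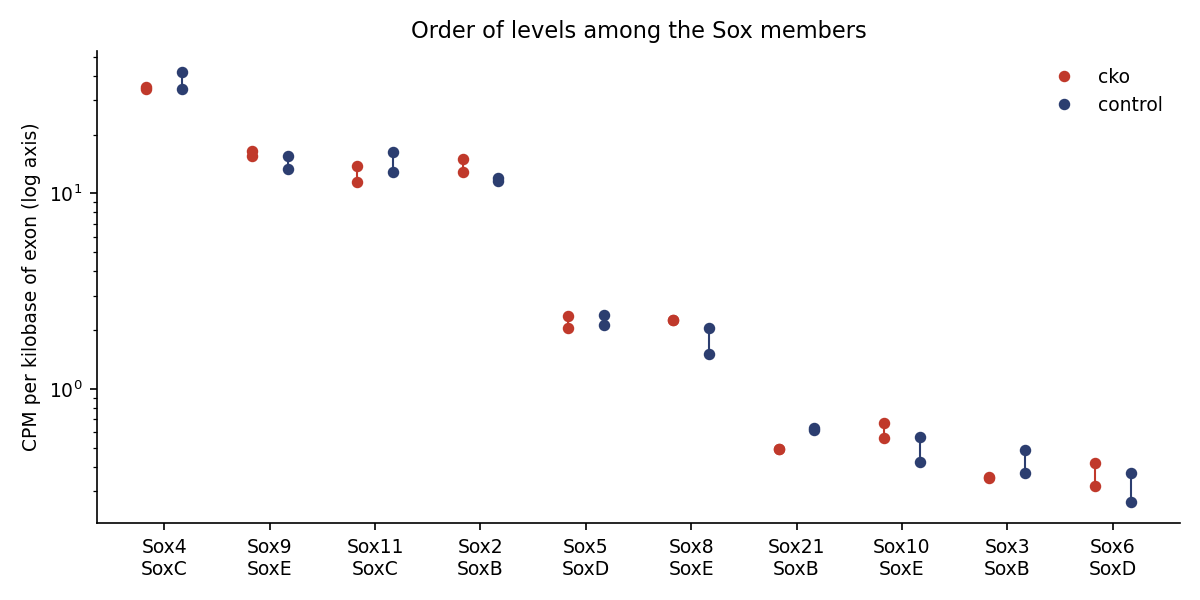
CPM per kilobase of exon (log axis) of each Sox member, ordered by the mean over 4 libraries, with cko left of control, 1 point per library and a line joining the 2 libraries of a genotype. Sox4 leads at 34.0 to 41.7, and Sox21, Sox10, Sox3 and Sox6 lie below 0.67.

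Summed by group, SoxC genes gave 56.7% and 56.4% of the members' level per kilobase in cko libraries against 65.5% and 58.0% in control libraries. SoxE genes gave 21.8% and 23.6% in cko libraries against 17.5% and 22.3% in control libraries, and SoxB genes 18.7% and 16.7% in cko libraries against 14.2% and 16.2% in control libraries. Both cko shares were below both control shares for SoxC and above both for SoxB, while those of SoxE overlapped. SoxD genes gave 2.70% to 3.40% in every library. These shares are descriptions on 2 libraries per genotype, and a higher share of one group lowers the others. They cover the 10 members alone and leave out relatives such as Sox1 of SoxB and Sox12 of SoxC. Sox12 was at 36.8 and 39.9 CPM per kilobase in cko libraries and 42.5 and 38.7 in control libraries. It lay above Sox4 in every library.

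The levels of glial Sox genes in these libraries stood beside transcripts of glia. The 12 listed astrocyte and Bergmann glia markers were all detected and summed to 1209 and 1138 CPM in cko libraries against 1320 and 1379 CPM in control libraries. None of the 12 passed the test, although 5 had an unadjusted p under 0.05, as did 13.6% of all tested genes. Of the 12, 10 had log2 fold changes below 0, and the median of the 12 was -0.18, opposite in sign to Sox2 and Sox9. The 13 oligodendrocyte lineage markers summed to 459 and 489 CPM in cko libraries against 425 and 379 CPM in control libraries, with 12 above 0 and a median of 0.21, the sign of Sox8 and Sox10. Of these Olig2, a transcription factor of oligodendrocyte progenitors, passed: it was at 6.94 and 6.96 CPM in cko libraries against 2.66 and 3.36 CPM in control libraries (log2 fold change 1.21 ± 0.20 SE, adjusted p = 0.0415). No marker on either list was at 0 counts in all libraries, and the part of these cells in the Sox values was not tested.

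The granule cell lineage itself was well represented, with its 11 markers summing to 4543 and 5179 CPM in cko libraries against 5679 and 5534 CPM in control libraries. One of them, Nhlh1, a bHLH factor of young granule neurons, fell to 178 and 172 CPM in cko libraries, against 280 and 249 CPM in control libraries (log2 fold change -0.60 ± 0.10 SE, adjusted p = 0.0467). The median of the 11 was -0.12, with 7 below 0 and 4 above. Their log2 fold changes ran from -0.71 for Neurod1 to 0.57 for Gli2. Of the 11, 5 had an unadjusted p under 0.05, against 13.6% of all tested genes. Microglial markers summed to 135 to 163 CPM over all libraries, none of 4 passing, and the Schwann cell marker Foxd3 was too low to test. GABAergic and Purkinje cell markers summed to 240 and 254 CPM in cko libraries against 250 and 265 CPM in control libraries. Of the 10 tested 0 passed and 3 had an unadjusted p under 0.05, as did 13.6% of all tested genes. Among the Schwann cell markers 0 of 3 tested had an unadjusted p under 0.05, as with 0 of the 4 microglial ones.

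The Sox genes outside the 10 gave 0 calls among 7 tested, and 3 had an unadjusted p under 0.05 (13.6% of all genes did). All 3 were above their control level. Sox18, a SoxF factor of vascular endothelium, was at 28.0 and 21.2 CPM in cko libraries against 10.5 and 14.7 CPM in control libraries. The genotypes did not overlap, and its log2 fold change of 0.97 (SE 0.21, interval 0.46 to 1.47, adjusted p = 0.0966) was the highest of the 17 Sox genes tested. Over the alternatives its adjusted p ran between 0.000954 and 0.228. DESeq2 put it past the threshold (adjusted p = 0.000954), as did the fit without a filter (0.0217) and the one without cko replicate 2 (0.0493). The other SoxF genes were Sox7, at 5.64 and 6.50 CPM in cko libraries against 3.90 and 4.39 CPM in control libraries (log2 fold change 0.55, adjusted p = 0.248), and Sox17, at 2.67 and 3.17 CPM in cko libraries against 2.34 and 1.64 CPM in control libraries (0.55, adjusted p = 0.434).

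Endothelial markers lay in the same direction as the SoxF genes. The 11 endothelium markers summed to 414 and 424 CPM in cko libraries against 321 and 279 CPM in control libraries. Of these, 10 had log2 fold changes above 0 (median of the 11, 0.47). None of these 10 passed the test, although 8 had an unadjusted p under 0.05, as did 13.6% of all tested genes. The exception was Slco1a4, an organic anion transporter of brain endothelium, which fell to 3.75 and 4.68 CPM in cko libraries, against 10.3 and 8.78 CPM in control libraries (log2 fold change -1.18, adjusted p = 0.0415). The part of endothelial RNA in the SoxF values was not tested.

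None of the closer relatives of the 10 passed. Sox12, the remaining SoxC gene, was at 164 and 178 CPM in cko libraries against 189 and 172 CPM in control libraries (log2 fold change -0.083, adjusted p = 0.818), and Sox1, a SoxB1 gene, at 24.7 and 21.9 CPM in cko libraries against 18.7 and 21.7 CPM in control libraries (0.21, adjusted p = 0.603). Sox13, the remaining SoxD gene, was at 5.06 and 4.76 CPM in cko libraries against 3.79 and 3.38 CPM in control libraries (0.45, adjusted p = 0.362). Sox30, known from testis, barely passed the filter at 0.130 and 0.211 CPM in cko libraries against 0.144 and 0.199 CPM in control libraries (-0.012, adjusted p = 0.996). Sox14 and Sry had no counts, and Sox15 had at most 2 reads in a library.

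Genes that Sox factors act with or act on were read from lists written by function. Among the POU partner factors, Pou3f3 had the highest mean CPM, with 91.1 and 78.7 CPM in cko libraries against 86.3 and 75.1 CPM in control libraries (log2 fold change 0.073, adjusted p = 0.870). Of the 4 POU genes 0 passed, and 1, the scarce Pou3f1, had an unadjusted p under 0.05 (13.6% of all tested genes did). Pou3f1 was at 0.415 and 0.488 CPM in cko libraries against 0.862 and 0.746 CPM in control libraries (adjusted p = 0.300). The 3 genes known as shared targets of SOX2 and CHD7 in neural stem cells all had log2 fold changes above 0. Over all 16436 tested genes, 8201 did. Jag1, a Notch ligand, was at 15.02 and 12.47 CPM in cko libraries against 9.40 and 9.16 CPM in control libraries (log2 fold change 0.57 ± 0.15 SE, adjusted p = 0.149). Mycn, a proliferation factor downstream of sonic hedgehog, was at 180 and 158 CPM in cko libraries against 139 and 157 CPM in control libraries (0.19, adjusted p = 0.568), and Gli3 gave 0.18 (adjusted p = 0.648). None of the 3 passed, and 1 had an unadjusted p under 0.05, as did 13.6% of all tested genes. Jag1 passed in DESeq2 (adjusted p = 0.0426).

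The 3 listed SoxC target genes lay lower in both cko libraries than in both control libraries. Tubb3, a neuronal tubulin, was at 647 and 887 CPM in cko libraries against 1118 and 1135 CPM in control libraries (log2 fold change -0.55 ± 0.16 SE, adjusted p = 0.181). Dcx, a microtubule protein of migrating neurons, was at 797 and 968 CPM in cko libraries against 1114 and 1154 CPM in control libraries (-0.36, adjusted p = 0.275). Tead2, a transcription factor of the Hippo pathway, was at 159 and 171 CPM in cko libraries against 197 and 207 CPM in control libraries (-0.30, adjusted p = 0.227). None passed. All 3 had an unadjusted p under 0.05, as did 13.6% of all tested genes. Both cko libraries were below both control libraries in 21.2% of all tested genes. The median of the 3 was -0.36. Tubb3 passed in DESeq2 (adjusted p = 0.0208), in the fit without a filter (0.0432) and without cko replicate 2 (0.0209), while Sox4 and Sox11 themselves passed in none of these.

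Of 12 genes listed as targets of SOX9 or SOX10, 1 passed, where 1.58% of all tested genes did. Apcdd1, an inhibitor of Wnt signaling that SOX9 activates with NFIA in glial precursors, rose to 131 and 121 CPM in cko libraries, against 81.5 and 78.9 CPM in control libraries (log2 fold change 0.65 ± 0.094 SE, interval 0.43 to 0.87, adjusted p = 0.0348). The genotypes were well apart, but the call was lost without cko replicate 1 (adjusted p = 0.0628), control replicate 1 (0.0730) or control replicate 2 (0.172). The calls of Olig2 and Slco1a4 were lost without the same libraries (adjusted p 0.0718 to 0.146 for Olig2 and 0.0842 to 0.123 for Slco1a4), and that of Nhlh1 with any single library left out (0.0564 to 0.256). The other glial targets included Nfia itself, at 554 and 645 CPM in cko libraries against 587 and 589 CPM in control libraries (0.027, adjusted p = 0.962). Of the 12, 9 had log2 fold changes above 0 (median of the 12, 0.23), and so did 8201 of the 16436 genes tested. An unadjusted p under 0.05 was found for 2 of the 12 and for 13.6% of all tested genes. The list shares its myelin genes with the oligodendrocyte markers.

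**Figure D4:**
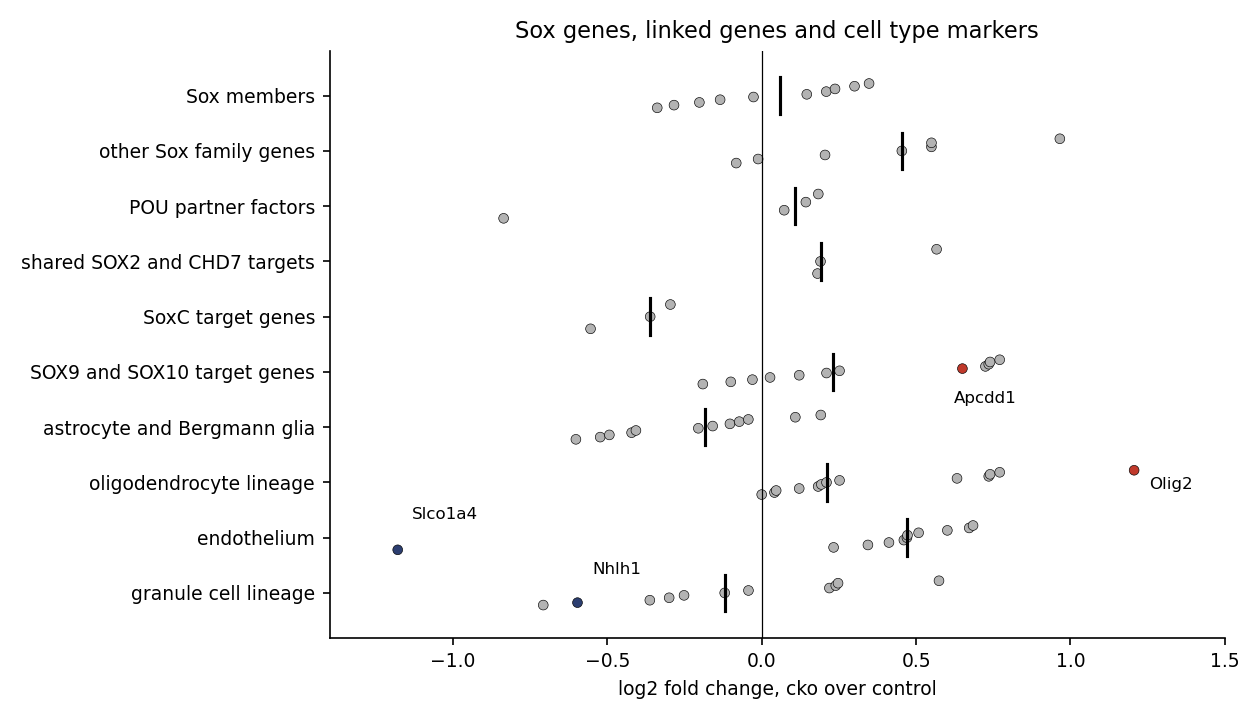
Log2 fold change of cko over control for each tested gene of the Sox members, the other Sox genes, the linked gene lists and 4 cell type marker lists, with a black line at each list's median. Coloured, named points passed the adjusted p threshold of 0.05 (red higher in cko, blue lower), and grey points did not. The members' median is 0.060, that of the other Sox genes 0.45 and that of the SoxC targets -0.36.

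The members' values depended little on the method and more on single libraries. The DESeq2 size factors, the fit without a filter and the DESeq2 test kept the sign of each of the 10 log2 fold changes, and in none of these, nor with any single library left out, was a member called. Leaving out 1 library changed the sign of Sox4, Sox5 and Sox6. For the other 7 the sign stayed the same, with the log2 fold change of Sox2 between 0.14 and 0.34, that of Sox21 between -0.35 and -0.32 and that of Sox9 between 0.040 and 0.26.

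**Figure D5:**
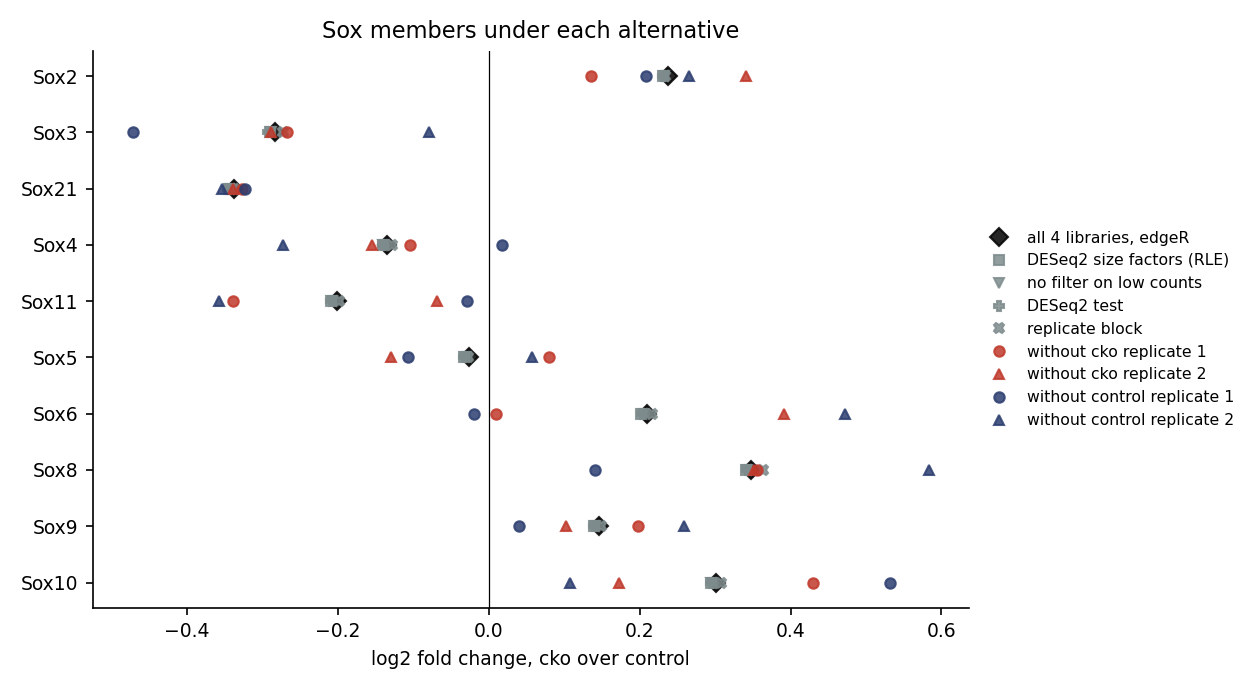
Log2 fold change of cko over control for each Sox member from all 4 libraries with edgeR (black diamonds), under 4 other processing choices (grey) and with 1 library left out (red, a cko library; blue, a control library). Grey symbols sit on the black ones, whereas single libraries spread Sox6 from -0.020 to 0.47 and Sox8 from 0.14 to 0.58.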

How the data were processed

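The values used were whole-number counts of reads per gene, deposited by the authors as raw values in 1 file for each RNA-Seq library. According to the methods and the submitters' processing notes, reads were trimmed (Trim Galore 0.4.1), aligned to mm10 (TopHat2 2.0.14) and counted per Ensembl 75 gene (HTSeq 0.6.1p1, strict intersection, alignment quality of at least 3). Such counting drops reads shared between overlapping genes. The sources used here do not give the strand setting.

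Gene names, exons and coordinates came from GENCODE on GRCm38 (37607 of 38924 identifiers matched). Counts were filtered with filterByExpr, scaled by TMM and tested with edgeR 4.0.16 in R 4.3.3 (robust quasi-likelihood, genotype only, Benjamini-Hochberg adjustment over 16436 genes, threshold 0.05). Intervals are 95%, from the moderated t distribution. DESeq2 1.42.0 was an alternative. Replicate libraries differed beyond counting noise (chi-square per degree of freedom 93.7 for cko and 49.9 for control). Scripts were tested on simulated data. The text names all 10 members, tested Sox relatives and, per linked list, called genes or the most abundant one; others were added after their values were seen. Members and lists were chosen with earlier results of these data known. A likeness of pattern to other genes was not computed, since 4 libraries are too few.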

Additional observations from a re-analysis of the deposited data

How the results depend on the processing

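The number of Sox members called was 0 under every alternative run: DESeq2 size factors, no filter on low counts, the DESeq2 test, the replicate block and each library left out. The count over all genes, 260, was 727 without a filter (387 higher, 340 lower), 878 with DESeq2 (452 higher, 426 lower) and 1010 with the replicate block (530 higher, 480 lower), and 83 to 602 with 1 library left out. Without control replicate 2 it was 83, without control replicate 1 it was 181, without cko replicate 1 224 and without cko replicate 2 602. The cause was not tested.

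Same-numbered libraries deviated together only weakly (correlation over genes 0.268, 2 pairs), and the labels give the numbers no meaning. Whether same-numbered libraries were handled together is not known. Both replicates 1 were deeper than both replicates 2. Both replicates 1 also held less mitochondrial RNA, at 1.86% in cko and 2.14% in control, against 3.80% in cko and 3.41% in control. With the replicate block 1 member, Sox11, had an unadjusted p under 0.05 by the edgeR fit (adjusted p = 0.174), and 1 member, Sox2, did so without cko replicate 2 (adjusted p = 0.218). The block also put Jag1 (adjusted p = 0.0410), Tubb3 (0.0367) and Tead2 (0.0498) past the threshold.

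With single libraries left out, log2 fold changes of both signs were seen for Sox4 (-0.27 to 0.017), Sox5 (-0.13 to 0.080), Sox6 (-0.020 to 0.47), Sox30 (-0.38 to 0.33), Pou3f3 (-0.027 to 0.18) and Pou3f4 (-0.27 to 0.46). Over the members 76 of the values under an alternative kept their direction and their side of the threshold and 4 changed sign. With the longest transcript in place of the union of exons 6 of 10 members kept their place in the order of levels. The exonic length outside other genes, tried after the data were seen, kept all 10. The alternatives for linked genes and markers were also added after the data were seen. Depth limits Sox3 and Sox10 most, with at most 133 reads in a library: in DESeq2 their intervals passed 2-fold.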
